A study of Mus musculus with 6 samples.

Results

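The genes that encode the protein part of the cytosolic ribosome, and the initiation and elongation factors that work on it, were followed in TUBO cells under 2 adherent culture conditions. Members were chosen by symbol in the probe annotation, Rpl, Rps, Eif or Eef followed by a number, without pseudogenes, ribosomal S6 kinases, eIF2 alpha kinases and Eif4ebp1. Of 16561 named genes on the array, 110 met this rule: 32 Rpl genes of the large subunit, 24 Rps genes of the small subunit, 43 Eif genes and 11 Eef genes. Where a gene had several probes, the one with the highest mean raw signal stands for it. The symbols also brought in 9 paralogs, partners or retrogenes of ribosomal proteins, among them Rps19bp1, and several regulators such as Eef2k, the kinase that inactivates elongation factor 2.

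TUBO is 1 established line, grown out of a mammary carcinoma of a female BALB-neuT mouse, a strain with the neu transgene under a mouse mammary tumour virus promoter. By title, the 3 arrays named TMA hold total RNA of cells in mammosphere medium, which is DMEM-F12 without serum, with bFGF and EGF at 20 ng/ml each, insulin at 5 μg/ml and bovine serum albumin at 0.4%. For the 3 arrays named TDA the cells grew in DMEM plus fetal calf serum (20%), and the labels name no further treatment for either group. The growth protocol goes with the titles, but the source names of the samples give the 2 media the other way round. All differences are therefore TMA minus TDA by title, and which medium goes with a direction stays unknown. No label says whether replicates were separate cultures, so p-values cover only the scatter among these samples, possibly technical in origin. Values by array are in replicate order, TMA before TDA.

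The mean raw signal of the arrays ranged from 560.2 to 845 over 25697 probes. All 6 came from 1 chip, TMA in the first positions and TDA in the last, so position and group cannot be told apart. Limma's moderated test called 387 of 12848 tested probes at an adjusted p of 0.05. Leaving out 1 array changed that count to 683 for TMA1, 19 for TMA2, 3 for TMA3, 8 for TDA1, 656 for TDA2 and 125 for TDA3. Of 10 epithelial markers, 9 were on the array and 8 were tested. The 9 averaged 10.98 to 11.53 (log2) on TMA and 10.73 to 10.83 on TDA arrays, with the protease inhibitor Spint1 called higher and 0 called lower. The fibroblast, endothelial and adipocyte lists averaged between 6.54 and 7.06 on every array, near the value of 7.02 that a probe's mean had to exceed to be tested. The leukocyte list averaged 7.73 to 8.10 on TMA and 7.88 to 8.13 on TDA arrays, carried by Cd14, while Ptprc, the pan-leukocyte marker, read 6.02 to 6.98. The part of these markers in the results was not tested.

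A ribosome is built from 2 subunits, each a ribosomal RNA scaffold dressed with many proteins needed in equal numbers. Initiation factors bring the initiator tRNA and the messenger to the small subunit: eIF2 carries the tRNA and is recharged by eIF2B, the cap-binding eIF4 group opens the messenger with the helicase eIF4A, and the large eIF3 complex bridges both. Elongation factor eEF1A then delivers each further tRNA, eEF1B recharges eEF1A, and eEF2 moves the ribosome along by 1 codon. Messengers of ribosomal proteins and elongation factors begin with a tract of pyrimidines, the TOP motif, through which mTORC1 governs how well they are translated, a control of translation that a messenger level does not read. Growth factors, insulin and serum all feed into mTORC1.

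The promoters show how the members differ in sequence. RefSeq's table of start sites (GRCm38.p6) held 91 of the 110 members, with 250 bases before and 50 after each annotated start. CACGTG is an E-box that reads the same on both strands and is bound by MYC family factors. It was present for 9 of 34 initiation factor genes (26.5%), 3 of 8 Eef genes, 5 of 27 Rpl genes and 1 of 22 Rps genes, against 8.09% of all 27025 genes of the table. The 3 Eef genes were Eef2, its kinase gene Eef2k and the methyltransferase gene Eef1aknmt, so only Eef2 among them is an elongation factor. The sequences upstream of the helicase genes Eif4a1 and Eif4a2 are shown because the differences of these paralogs had opposite signs, and capitals mark CACGTG, which lay 189 bases before the start in Eif4a1 and was not among these letters in Eif4a2. The stretches around the 2 sites of Eif5a, which has 6 annotated starts, follow.
Eif4a1, chr11:69672424-69672673, minus strand: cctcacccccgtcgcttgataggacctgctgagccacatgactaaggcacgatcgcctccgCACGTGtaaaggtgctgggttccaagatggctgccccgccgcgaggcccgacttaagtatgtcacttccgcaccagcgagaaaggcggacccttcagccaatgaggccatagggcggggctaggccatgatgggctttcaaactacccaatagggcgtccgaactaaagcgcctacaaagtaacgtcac
Eif4a2, chr16:23107218-23107467, plus strand: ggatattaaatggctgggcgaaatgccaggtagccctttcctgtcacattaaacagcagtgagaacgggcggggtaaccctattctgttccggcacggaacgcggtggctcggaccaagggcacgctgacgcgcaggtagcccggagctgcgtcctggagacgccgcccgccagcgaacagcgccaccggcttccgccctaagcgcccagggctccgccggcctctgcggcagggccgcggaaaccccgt
Eif5a, upstream site, chr11:69921443-69921472, minus strand: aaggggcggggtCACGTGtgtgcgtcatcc
Eif5a, downstream site, chr11:69920791-69920820, minus strand: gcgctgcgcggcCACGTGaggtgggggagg

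Around the start sites of ribosomal protein genes the pyrimidine tract can be read directly. CTTTC on the transcribed-sense strand within 30 bases of an annotated start was present for 9 of 27 Rpl genes and 4 of 22 Rps genes, against 9.18% of all genes. It was present for 5 of 34 initiation factor genes and 0 of 8 Eef genes. Annotated starts can lie some bases from the true start, so no match says only that these letters were not in this window. A tract of pyrimidines in another order was not counted, so these counts do not say how many genes carry a TOP motif. CCGGAAG, a site of ETS factors, was present on either strand for 11 of 27 Rpl, 9 of 22 Rps and 14 of 34 initiation factor genes, against 9.93% of all genes. Genes with several starts had more windows to hold a motif. In the 4 windows below, capitals mark CTTTC and the annotated start is the middle of each sequence.
Rpl28, chr7:4792950-4792979, plus strand: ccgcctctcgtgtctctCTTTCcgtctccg
Rpl35, chr2:39005117-39005146, minus strand: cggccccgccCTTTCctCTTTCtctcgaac
Rpl38, chr11:114668565-114668594, plus strand: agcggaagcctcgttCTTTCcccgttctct
Rps26, chr10:128626492-128626521, minus strand: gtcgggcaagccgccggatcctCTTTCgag

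No ribosomal protein gene passed the test between TMA and TDA arrays. Of 56 on the array, 47 passed the filter on dim probes, and limma called 0 of these 47 at an adjusted p of 0.05, where 3.01% of all tested probes were called. At an unadjusted p under 0.05, 6 of 47 passed (12.8%), 4 higher and 2 lower, against 18.5% of all tested probes. The median log2 difference was -0.10 over 26 large-subunit genes and 0.01 over 21 small-subunit genes, beside -0.01 over all 8960 tested genes. Without paralogs and partners it was -0.05 over 23 large-subunit and 0.04 over 19 small-subunit genes. With median scaling the medians over the 26 and 21 genes were -0.19 and -0.066, and in the authors' log2 table -0.17 and -0.074. The sign of the small-subunit median thus depended on the scaling. The 95% interval of the difference lay inside 2-fold in either direction, a log2 difference of 1, for 38 of 47 ribosomal protein genes (80.9%), against 77.9% of all tested genes. A p that misses the threshold does not show equal levels; no interval of these 47 reached beyond 1.45.

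**Figure D1:**
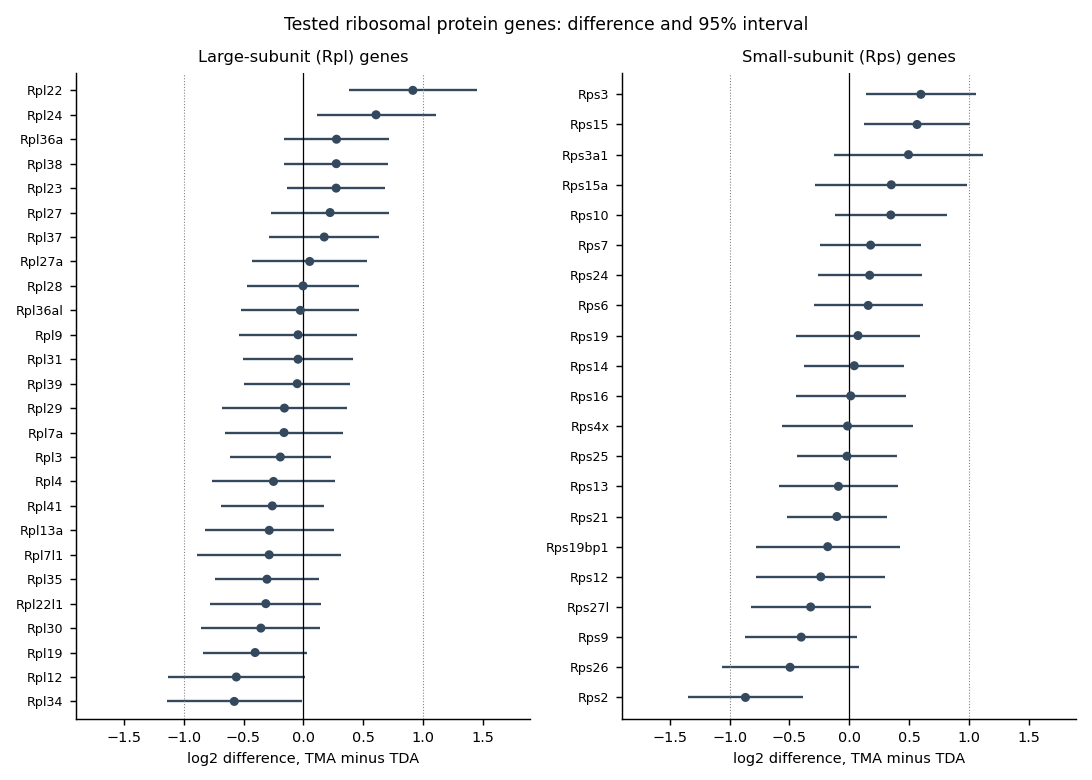
Log2 difference, TMA minus TDA, of every tested ribosomal protein gene (point) with its 95% interval from limma (line), Rpl genes on the left and Rps genes on the right, and dotted lines at a log2 difference of 1 in both directions. Points crowd around 0, with Rpl22 at 0.92 and Rps2 at -0.87 at the ends, and 0 of 47 passed an adjusted p of 0.05.

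In the large subunit, 18 of 26 differences were negative and 8 positive, from -0.58 to 0.92. Rpl34, a large-subunit protein, read 13.53, 13.19 and 12.57 (TMA) against 13.46, 13.96 and 13.61 (TDA) (log2 intensity), a difference of -0.58 (limma adjusted p = 0.258). Rpl12, part of the stalk base where elongation factors dock, read 13.36, 13.50 and 13.09 against 13.51, 14.48 and 13.63, a difference of -0.56 (limma adjusted p = 0.284). The Rpl34 groups overlapped, and those of Rpl12 nearly touched, TDA2 standing far above the rest. Without TDA2 the Rpl12 difference was -0.26, and without TMA3 that of Rpl34 was -0.32. Rpl19 stood at -0.40 (limma adjusted p = 0.313) with groups that did not overlap.

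Rpl22 and Rpl24 were the only large-subunit genes with an unadjusted p under 0.05 on the higher side. Rpl22, a dispensable subunit protein that also binds RNA outside the ribosome, read 11.04, 11.57 and 10.97 (TMA) against 9.95, 10.67 and 10.21 (TDA). All TMA arrays lay above all TDA arrays, at 0.92 ± 0.25 (standard error), or 1.89-fold, with limma adjusted p = 0.0656. Without TDA2, where calls over all tested probes rose from 387 to 656, Rpl22 passed (1.11, limma adjusted p = 0.0150). With any other array left out it did not pass, with limma adjusted p up to 0.264. Its paralog Rpl22l1, which can take its place in the ribosome, was dim, at -0.31 (limma adjusted p = 0.487) and at -0.15 without TDA2. Rpl24, which bridges the 2 subunits, read 13.47, 14.02 and 13.32 against 12.81, 13.13 and 13.04, also without overlap, at 0.61 (limma adjusted p = 0.172) and at 0.40 without TMA2, and Rpl36a stood at 0.28. Rpl3, which sits near the peptidyl transferase centre, and Rpl39, which lines the exit tunnel, stood at -0.19 and -0.05, with 95% intervals from -0.61 to 0.23 and from -0.49 to 0.39.

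In the small subunit, 10 of 21 differences were negative and 11 positive. Rps2, at the mouth of the messenger's entry channel, read 13.56, 13.55 and 14.12 (TMA) against 14.52, 14.50 and 14.82 (TDA). Every TMA array lay below every TDA array, and the difference was -0.87 ± 0.22 (standard error, limma adjusted p = 0.0567). It passed without TDA2 (-0.92, limma adjusted p = 0.0400), where calls over all tested probes rose from 387 to 656. With any other array left out Rps2 did not pass, with limma adjusted p up to 0.226. Rps3, a neighbour of Rps2 in that channel and also a DNA repair protein, differed with the other sign, at 14.07, 14.18 and 14.02 against 13.32, 13.83 and 13.32, a difference of 0.60 (limma adjusted p = 0.146). Rps3 also passed without TDA2 (0.77, limma adjusted p = 0.0495), but not with any other array left out (limma adjusted p up to 0.373). A second tested Rps3 probe read -0.12, so the Rps3 probes disagree in sign.

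Of the remaining small-subunit genes named by size, Rps15 stood at 0.57 with groups that did not overlap and Rps3a1 at 0.50 with groups that did (limma adjusted p = 0.150 and 0.395). Rps26, which contacts the messenger upstream of the start codon, and Rps9 stood at -0.49 and -0.40 (limma adjusted p = 0.350 and 0.352). Rps27l, a p53-inducible paralog of Rps27, stood at -0.32 (limma adjusted p = 0.513). With 1 array left out Rps3a1 ranged from 0.31 to 0.81, Rps26 from -0.67 to -0.26, Rps9 from -0.50 to -0.24 and Rps27l from -0.53 to -0.15. Non-overlapping groups were found for 11 of 47 ribosomal protein genes (23.4%), 6 higher and 5 lower, where 23.0% of all tested probes had them. The members' share was thus close to that of the whole array.

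The average of the ribosomal protein genes varied more among the arrays of a group than between the group means. It was 12.94, 13.13 and 12.82 (TMA) against 12.87, 13.19 and 12.91 (TDA) (log2, 47 genes). TMA2 and TDA2, which share the replicate number 2, were the highest array of their group. For 26 of 47 ribosomal protein genes (55.3%) the number 2 array was highest in both groups, against 13.1% of all tested genes and 8 of the 100 other tested genes with a mean log2 of at least 13. That count was 15 of 47 (31.9%) with median scaling and 21 of 47 (44.7%) in the authors' log2 table, against 6.22% and 12.0% of all tested genes. Those 100 bright genes ran the opposite way, averaging 13.62 on TMA2 and 13.61 on TDA2 against 13.77 to 13.89 on the other arrays. The pattern depended on the scaling for the TDA arrays: with median scaling TDA1 averaged 13.22 and TDA2 13.12, and in the authors' log2 table TDA2 averaged 13.33 and TDA3 13.25, while TMA2 was the highest TMA array under all 3. These averages are a description without a test, chosen after the values had been seen, and RNA quality, which no label gives, was not tested.

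**Figure D2:**
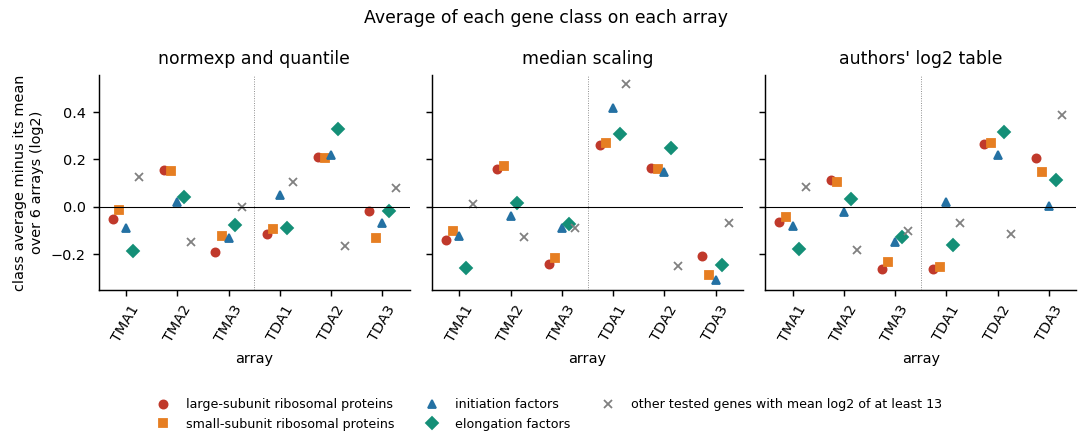
Average log2 value of each class of tested members on each array, minus the mean of that average over the 6 arrays, in 3 versions of the values; grey crosses are the 100 other tested genes with a mean log2 of at least 13. In the left panel both ribosomal classes peak on TMA2 and TDA2, where the grey crosses are lowest, and in the middle panel they are higher on TDA1 than on TDA2.

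Within the ribosomal protein genes, differences also varied little from gene to gene. Their SD across genes was 0.34 for Rpl and 0.36 for Rps genes, beside 0.46 over all tested genes. Among genes with a mean log2 of at least 13, the SD was 0.35 over 33 ribosomal protein genes, with 0 called, and 0.70 over the 100 others, with 9 called. The 5 tested paralogs and partners, Rpl7l1, Rpl22l1, Rpl36al, Rps27l and Rps19bp1, had negative differences at their representative probes, from -0.32 to -0.03, and 0 were called. The other tested Rpl7l1 probe stood at 0.14, against -0.29 for its representative. Rpl36al, at -0.03, had a standard error of 0.23.

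The 9 ribosomal protein genes that did not pass the filter included 4 Rpl genes and 1 Rps gene of the standard ribosome, Rpl6, Rpl14, Rpl17, Rpl21 and Rps23. Each of these probes averaged at least 6.50 (log2) and below the filter value of 7.02. A dim probe here gives no level for a protein that every ribosome carries. Ribosomal protein genes have many processed pseudogenes, and a probe may read their transcripts as well. Only 1 probe each read Rps2, Rpl22, Rpl24 and Rps15.

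Translation factors held the 2 calls among the members. Of 54 factor genes on the array, 44 were tested, and limma called 2 lower (4.55%) and 0 higher, where 1.49% of all tested probes were called lower and 1.53% higher. Both carry Eif symbols. Eif4a1 is the main helicase of cap-dependent initiation. Eif5a is the hypusine-bearing factor that helps the ribosome over difficult peptide bonds and in termination, so its class here follows the symbol only. The median difference was -0.17 over 36 initiation factors and -0.35 over 8 Eef genes, with 22 of 36 and 5 of 8 negative. The tested Eef symbols include genes that are not elongation factors, all negative: Eef1akmt1 (-0.57), Eef1aknmt (-0.24) and Eef1e1 (-0.50). Of the factors themselves, Eef1a1, Eef1d and Eef2 stood at 0.12, 0.12 and 0.88. Eef1b2 and Eef1g stood at -0.45 and -0.52. The negative median of this class therefore depends on the symbol rule. At an unadjusted p under 0.05, 11 of 44 factor genes passed, 3 higher and 8 lower, against 18.5% of all tested probes.

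Eif4a1 read 13.13, 12.72 and 13.31 (TMA) against 14.33, 14.46 and 13.99 (TDA). The groups did not overlap, and Eif4a1 fell by 1.20 ± 0.23 on the log2 scale (standard error), so the TDA arrays were 2.30-fold higher (limma adjusted p = 0.0191). The call was lost without TMA2, TMA3 or TDA1, with limma adjusted p of 0.104, 0.0744 and 0.104 and differences of -1.04, -1.33 and -1.17. The second Eif4a1 probe had a difference of -0.43 (limma adjusted p = 0.379), and with probes averaged the difference was -0.82 (limma adjusted p = 0.0518). In RNA of whole cultures, fewer cells with a messenger and less of it per cell cannot be told apart.

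Eif4a2, a close paralog with the same helicase activity, had a difference of the opposite sign. It read 12.56, 12.96 and 12.68 (TMA) against 12.00, 11.95 and 11.83 (TDA). All TMA arrays lay above all TDA arrays, at 0.80 ± 0.20 (standard error, 1.75-fold), but limma's adjusted p was 0.0529. It passed without TMA1 and without TDA2 (limma adjusted p of 0.0429 and 0.0483), and without background correction (0.0414). Calls over all tested probes also rose without TMA1 and without TDA2, from 387 to 683 and 656. With any other array left out Eif4a2 did not pass (limma adjusted p up to 0.211), nor with median scaling (0.260). It passed in 5 of 18 alternatives. Coding sequences of the pair are similar, and a probe for either may read the other.

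Eif5a read 10.84, 11.26 and 10.69 (TMA) against 11.97, 12.25 and 11.66 (TDA). The groups lay apart, and Eif5a fell by 1.03 ± 0.23 on the log2 scale (standard error, limma adjusted p = 0.0383), a 2.04-fold higher level on the TDA arrays. That call rests on 1 of its 2 probes. The other, with a mean log2 of 11.50 against 11.44 for the representative, had a difference of -0.23 (limma adjusted p = 0.628). The call was kept without TDA2 only, among the 6 ways of leaving out an array, with limma adjusted p from 0.0449 to 0.188. It was also lost without background correction, with an offset of 16 and with median scaling (limma adjusted p of 0.0516, 0.0578 and 0.102). Eif5a2, the paralog of Eif5a, was too dim to be tested.

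**Figure D3:**
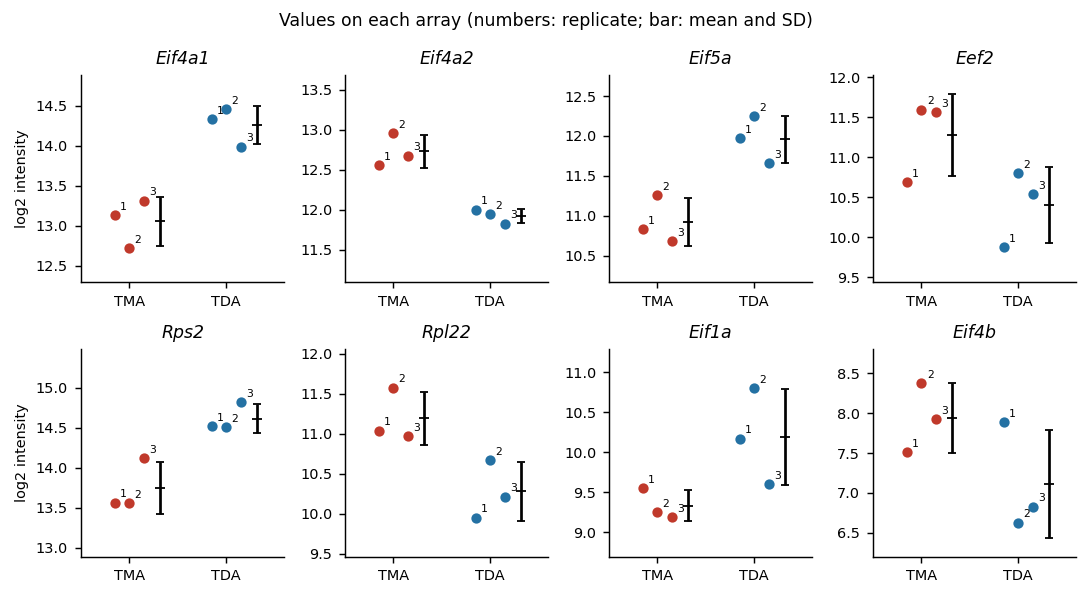
Log2 intensity on each array for 8 members, TMA in red and TDA in blue, with the replicate number beside each point and a bar for the mean and SD of the 3 arrays; panels span the same height in log2 units around their own centre. Eif4a1, Eif5a, Rps2 and Eif1a are lower on every TMA array than on any TDA array, Eif4a2 and Rpl22 are higher on every TMA array, and the groups of Eef2 and Eif4b overlap.

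Of the eIF4 group, 13 genes were on the array and 11 were tested, with 7 positive and 4 negative differences. Eif4g2, a relative of the scaffold eIF4G that works without the cap-binding protein, read 7.88, 7.81 and 7.79 (TMA) against 8.36, 8.79 and 8.31 (TDA), at -0.66 (limma adjusted p = 0.105). These groups did not overlap, and the other tested Eif4g2 probe had a difference of -0.21. Eif4b, which stimulates the helicase, read 7.51, 8.38 and 7.93 against 7.88, 6.63 and 6.83, at 0.82 (limma adjusted p = 0.191). TDA1 overlapped the TMA arrays there, and the difference was 1.21 without it and 0.44 without background correction, Eif4b being dim.

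The cap-binding proteins themselves showed small differences, but Eif4e and Eif4e3 were dim, averaging 7.04 and 7.05 against the filter value of 7.02. Differences of such dim genes are understated by the processing. Eif4e, which recognises the cap, stood at 0.25, Eif4e2 at 0.10 and Eif4e3 at 0.02, with limma adjusted p of at least 0.628, and Eif4h, a partner of the helicase, at 0.06. With 1 array left out the difference ranged from 0.08 to 0.42 for Eif4e and from -0.27 to 0.17 for Eif4e3. Eif4a3, the helicase of the exon junction complex, stood at -0.42 (limma adjusted p = 0.354). Eif4ebp2, a repressor of Eif4e, stood at 0.04. Eif4g1 and Eif4g3 were not among the genes of the probe annotation used here.

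Of 12 eIF3 subunit genes, 11 were tested and 0 called, with 8 negative and 3 positive differences and a median of -0.33. Eif3l read 11.93, 11.34 and 11.01 (TMA) against 11.86, 12.43 and 11.90 (TDA), at -0.64 (limma adjusted p = 0.216). Eif3i read 11.94, 12.20 and 11.95 against 12.87, 12.30 and 12.49, at -0.52 (limma adjusted p = 0.211). Eif3l overlapped between the groups on TMA1, and Eif3i did not overlap. The other tested probe of Eif3l read -0.21, and those of Eif3i -0.38 and -0.20. Eif3a, the scaffold of the complex, stood at 0.38 without overlap (limma adjusted p = 0.347), and its other tested probe, a dim one, at 0.06. Eif3j1 and Eif3f stood at 0.43 and 0.19. The average of the eIF3 genes was 10.20, 10.53 and 10.16 over the TDA arrays and lay between 10.03 and 10.26 over the TMA arrays, so the groups overlapped.

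Of 8 tested genes of eIF2, eIF2B and their relatives, 0 were called. Of the eIF2 subunits, Eif2s2 stood at 0.49 (limma adjusted p = 0.432), its second probe at 0.44, and Eif2s3x at 0.02. The eIF2B subunits Eif2b1, Eif2b4 and Eif2b5 stood at -0.23, -0.24 and -0.24 and Eif2b2 at 0.35, with limma adjusted p from 0.438 to 0.633. All 4 of these eIF2B intervals lay within a log2 difference of 1. Without TDA2, Eif2b1, Eif2b4 and Eif2b5 stood at -0.11, -0.12 and -0.073, and without TMA3 Eif2b2 stood at 0.23. Eif2s2 ranged from 0.26 to 0.82 with 1 array left out. The Y-linked Eif2s3y read 5.87 to 6.88 in these cells of a female mouse, a background reading. Eif1a, a factor of start codon scanning, read 9.55, 9.25 and 9.19 (TMA) against 10.17, 10.80 and 9.60 (TDA), at -0.86 (limma adjusted p = 0.116). The Eif1a groups were apart by little, TMA1 and TDA3 being nearest, and the difference was -0.55 without TDA2. Eif6, which keeps the subunits apart, read 12.36 on TDA2 and 10.91 to 11.18 on the 5 other arrays, and its difference of -0.33 turned to 0.13 without TDA2.

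**Figure D4:**
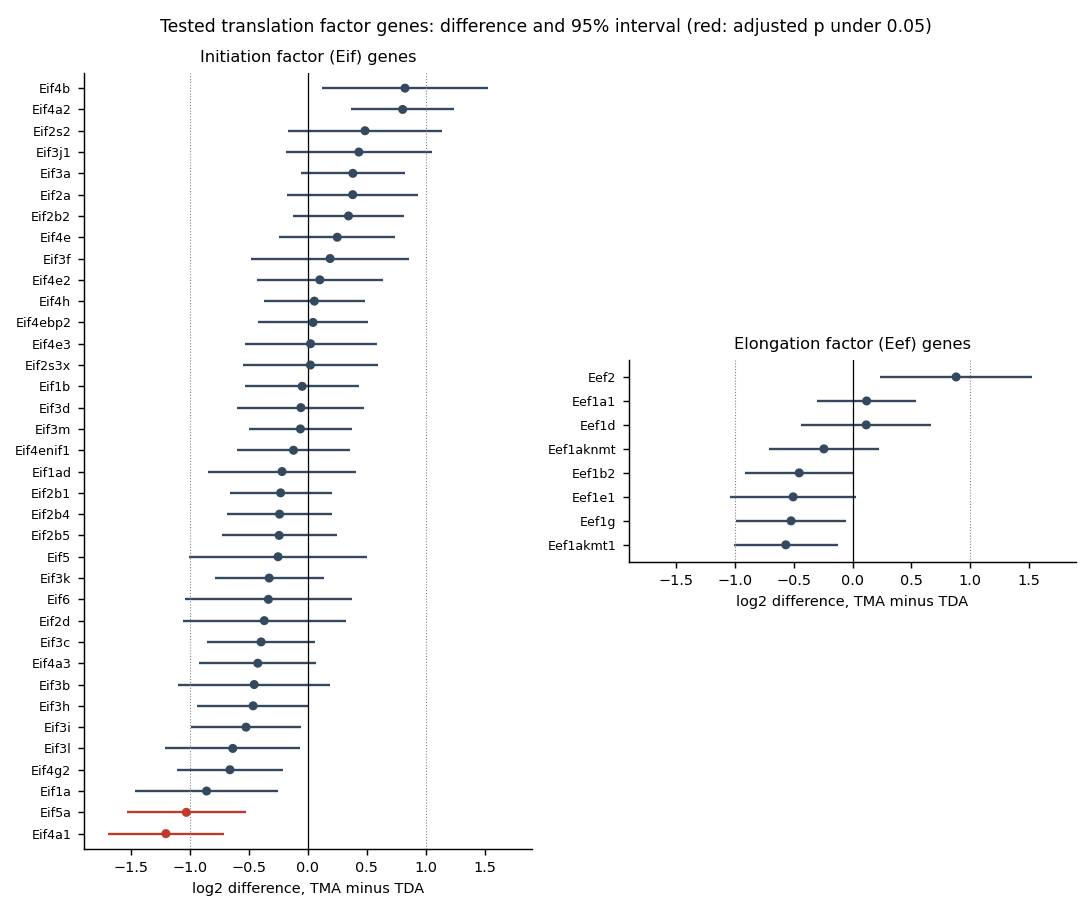
Log2 difference, TMA minus TDA, of every tested Eif gene (left) and Eef gene (right), as points with 95% intervals from limma and dotted lines at a log2 difference of 1 in both directions. Red marks Eif4a1 at -1.20 and Eif5a at -1.03, the 2 members with an adjusted p under 0.05, and Eef2 at 0.88 stands above the other Eef genes.

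Elongation factors differed among themselves. Eef2, the translocase, read 10.69, 11.59 and 11.56 (TMA) against 9.87, 10.80 and 10.53 (TDA). TMA1 lay between the TDA arrays, so the groups overlapped, and the difference was 0.88 ± 0.30 (standard error, limma adjusted p = 0.129). All 3 Eef2 probes gave nearly the same difference, the others 0.82 and 0.81 (limma adjusted p = 0.083 and 0.118). Eef2 passed without TMA1 (1.18, limma adjusted p = 0.0389) and without TDA2 (1.08, limma adjusted p = 0.0469). Calls over all tested probes also rose there, from 387 to 683 and 656. With any other array left out Eef2 did not pass, with limma adjusted p up to 0.404. Eef2k, whose product switches eEF2 off, was too dim to be tested at 6.60 to 7.49.

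Differences of the eEF1 genes lay on both sides of 0. Eef1a1, the tRNA carrier and a TOP messenger like Eef2, stood at 0.12, with a 95% interval from -0.30 to 0.54 and a second tested probe at 0.08. The recharging subunits Eef1g and Eef1b2 stood at -0.52 and -0.45 (limma adjusted p = 0.217 and 0.284), both without overlap between the groups, while Eef1d stood at 0.12. Eef1g read 13.04, 13.39 and 13.15 against 13.57, 14.04 and 13.53. Further Eef1b2 probes read -0.02 and -0.26, and the other tested Eef1d probe read -0.33, opposite in sign to its representative. Eef1e1, a scaffold protein of the tRNA synthetase complex, stood at -0.50 (limma adjusted p = 0.303, with -0.29 without TMA3 and -0.77 without TMA1) and the methyltransferase gene Eef1akmt1 at -0.57 (limma adjusted p = 0.152). Eef1a2, the muscle and neuron form, read 6.88 to 7.07 and was not tested. Among the TDA arrays, all 8 tested Eef genes were highest on TDA2, as were 39.2% of all tested genes. With median scaling 3 of the 8 were, and 7 of the 8 in the authors' log2 values.

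Where a member had more than 1 probe, the probes often disagreed in size. Of 38 further tested probes, 28 had the sign of the representative probe and 0 passed the threshold. The largest disagreements among ribosomal protein genes were those of Rps3, above, and Rps24, at 0.17 for the representative and -0.52 for the other probe. Which transcript forms these probes read is not given in the sources used here.

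**Figure D5:**
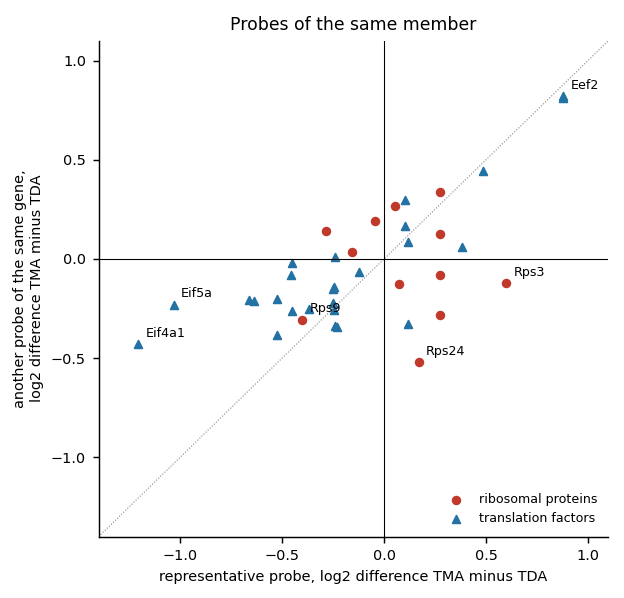
Each point is a further tested probe of a member, with the log2 difference (TMA minus TDA) of the representative probe on the horizontal axis and its own on the vertical axis; the dotted line marks equality. Eef2 lies near the line, Eif4a1 and Eif5a lie well above it with smaller differences for the second probe, and Rps3 and Rps24 lie in the quadrant of opposite signs.

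Initiation factor genes with the E-box letters lay on both sides of 0. The 8 tested genes that held CACGTG had differences from -1.20 for Eif4a1 to 0.38 for Eif3a, with a median of 0.00. The 8 tested Rpl genes with CTTTC near the start ranged from -0.56 to 0.28 and the 3 Rps genes from -0.49 to 0.35.

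Genes around the members gave 3 calls among 69 tested genes of 7 lists (4.35%), near the 3.01% of all tested probes. Of 8 listed genes for ribosomal proteins outside the symbol rule, 4 were on the array, 2 were tested and 0 were called: the stalk proteins Rplp0 and Rplp1 stood at -0.00084 and -0.33, the latter at -0.15 without TMA3. Of 10 tested translation control kinases and eIF4E-binding proteins, 0 were called and the median was 0.03. Eif4ebp1, the repressor of cap binding that mTORC1 inactivates, read 11.54, 11.02 and 11.00 (TMA) against 11.58, 12.26 and 11.73 (TDA), at -0.67 (limma adjusted p = 0.156). Mknk2, a kinase of eIF4E, stood at 0.96 with overlapping groups (limma adjusted p = 0.140) and at 0.61 without TMA2. Of 11 tested genes of termination, recycling and rescue, 0 were called, with the release factor gene Gspt1 at -0.56, Dap at 0.76 (0.40 without TDA2) and a median of -0.01.

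Of 10 other TOP messages tested, 1 fell, 0 rose and the median was -0.03. Nap1l1, a histone chaperone, read 8.64, 8.45 and 8.37 (TMA) against 9.42, 9.88 and 9.14 (TDA), a difference of -0.99 (limma adjusted p = 0.0407), and -0.51 with its probes averaged (limma adjusted p = 0.186). Pabpc1, the poly(A)-binding protein and itself a TOP messenger, read 12.26, 12.55 and 12.15 against 11.59, 10.57 and 11.77, at 1.01 without overlap (limma adjusted p = 0.084), and at 0.64 without TDA2. Of 14 tested partners of initiation and the poly(A) tail, Pabpc1 among them, 0 were called and the median was -0.08, with the helicase gene Ddx1 at -0.48.

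Of 19 tested genes of mTORC1 and its regulators, 1 rose, where 1.53% of all tested probes were called higher, 0 fell and the median was 0.03. Nprl2, a subunit of the GATOR1 complex that restrains mTORC1 when amino acids are short, read 10.10, 10.52 and 10.35 (TMA) against 9.29, 9.10 and 9.68 (TDA). It rose by 0.97 ± 0.22 (standard error, limma adjusted p = 0.0405), with no overlap. Of 4 tested genes of the polyamine and hypusine pathway that serves Eif5a, 1 rose, 0 fell and the median was -0.18. Odc1, the first enzyme of polyamine synthesis, read 13.83, 14.42 and 14.65 against 13.37, 12.80 and 13.36, and rose by 1.12 ± 0.26 (standard error, limma adjusted p = 0.0406). Leaving out TMA2, TMA3 or TDA1 ended the calls of Nprl2, Odc1 and Nap1l1, as did leaving out TDA3 for Nprl2 and Odc1 and TDA2 for Nap1l1. The calls of Nprl2, Odc1 and Nap1l1 were also lost with median scaling (limma adjusted p of 0.104, 0.184 and 0.120) and in the authors' log2 table (0.0549, 0.107 and 0.0676). They held in 10, 8 and 8 of 18 alternatives.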

How the data were processed

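Total RNA extracted with Trizol was labelled by the standard Illumina procedure and hybridised to 6 single-colour bead arrays, per the labels' protocols. The first table the authors deposited holds 1 raw signal intensity per probe and array, without detection p-values and, its lowest value being 147.5, without background subtraction. The second deposited table holds log2 values made comparable between arrays by the authors; how is not given in the sources used here. Raw intensities were background-corrected with normexp (offset of 50), quantile-normalized and converted to log2 in limma 3.58.1 under R 4.3.3, so differences understate the change of dim genes. Probes with a mean above the median of all probes, 7.02, were tested: 12848 probes, 8960 genes by representative probe. The two-sided limma fit (lmFit, then eBayes) was adjusted by Benjamini-Hochberg across these probes and had 4 residual and 8.22 prior degrees of freedom. Intervals are 95% intervals of the moderated fit. The number of arrays limits precision.

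Gene symbols came from the platform annotation; 1851 probes were unnamed here, and all 110 members matched a RefSeq gene identifier. Members and lists were chosen with earlier results of these data known. The rule for named genes took, in each class, every member past the threshold (at most 8), the 3 highest and 3 lowest differences, fixed paralogs and eIF2, eIF2B and eIF4 genes, and up to 3 called or the 2 leading members of each further list; other members were named after their values were seen. Alternatives changed the values (the authors' log2 table, cyclic loess, median scaling, an offset of 16, uncorrected background), the probes (no filter, the 75th percentile, averaging per gene), the arrays (each left out, quality weights) and the fit (replicate number as a block, unmoderated, trend with robust prior). The procedure was tested on simulated data. Python 3.11.15 with matplotlib 3.10.9 drew the figures.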

Additional observations from a re-analysis of the deposited data

How the results depend on the processing

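Eif4a1 kept its direction under all 18 alternatives and passed the threshold in 13, with differences from -1.34 to -0.82 and limma adjusted p from 0.00115 to 0.247. Eif5a kept its direction in all 18 and passed in 8, from -1.20 to -0.63 with adjusted p from 0.00194 to 0.262. Of 895 values of named genes under the alternatives, 795 kept direction and side of the threshold, 43 lost a call and 27 gained one. Calls over all tested probes, 387, numbered 135 in the authors' log2 table, 129 with median scaling, 200 on uncorrected background, 232 with the stricter filter, 1912 with array quality weights, 0 in the unmoderated test and 180 with probes averaged, and 3 to 683 with 1 array left out. In limma's unmoderated form 1794 tested probes and 12 members had an unadjusted p under 0.05. Members called lower numbered 1 with an offset of 16, on uncorrected background and with median scaling, 6 with array quality weights, 0 in the unmoderated test and with probes averaged, and 0 to 3 with 1 array left out. Members called higher numbered 1 without background correction and with probes averaged (Eif4a2 in both) and 6 with array quality weights. They numbered 0 to 4 with 1 array left out, the 4 being without TDA2. Among ribosomal protein genes, array quality weights called 5: Rpl22, Rpl24, Rps15, Rps2 and Rps3. Leaving out TDA2 called 3 (Rpl22, Rps2 and Rps3) and the replicate block 2 (Rpl22 and Rps2), and the remaining alternatives called 0.

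The median of Eef genes, -0.35, was -0.024 with no filter, where dim genes entered. Those of initiation factors and Rpl genes were then -0.063 and -0.048. The median of all tested genes was -0.019 with median scaling. Leaving out single arrays gave medians from -0.17 to -0.02 for Rpl genes and -0.04 to 0.09 for Rps genes. For initiation factors they ranged from -0.24 to -0.08 and for Eef genes from -0.44 to -0.19. Small differences changed sign: Eef1a1 was -0.025 in the authors' table and -0.027 with median scaling, Eif4e3 -0.0014 on uncorrected background, -0.012 with median scaling, -0.0057 with cyclic loess, -0.0033 in the authors' table and -0.26 with array weights, Eif4h -0.067 with array weights, -0.026 with median scaling and -0.030 in the authors' table, Rpl39 0.0028 with array weights, and Rplp0 0.0079 on uncorrected background, 0.0050 with median scaling, 0.0050 with cyclic loess and 0.012 in the authors' table. With 1 array left out Eef1d ranged from -0.14 to 0.33, Eif2s3x from -0.30 to 0.23, Eif4e2 from -0.071 to 0.30, Eif4e3 from -0.27 to 0.17, Eif4h from -0.043 to 0.15, Eif6 from -0.59 to 0.13, Rpl39 from -0.16 to 0.043 and Rplp0 from -0.23 to 0.24. The cause of these changes was not tested.

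The numbers of the titles were not shown to pair arrays: deviations of same-numbered arrays correlated at 0.126, 0.0128 and 0.0268 over tested probes, and TMA2 correlated best with TDA3, at 0.0620. With the replicate block 524 probes passed, and members called higher were 2 (Eef2 and Rpl22) and lower 3 (Eif4a1, Eif5a and Rps2).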
